A study of Mus musculus with 6 samples.

Results

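The genes described here were 10 amino acid transporters of the plasma membrane, chosen by name from the 46078 genes of the count tables. By substrate they fell into cationic amino acids (Slc7a1, Slc7a2 and Slc7a3), large neutral amino acids (Slc7a5 with its partner chain Slc3a2), cystine (Slc7a11), glycine (Slc6a9) and small neutral amino acids (Slc1a4, Slc1a5 and Slc38a2). All 10 were found, and all 10 passed the filter on low counts that 16813 genes passed. Bulk RNA sequencing measured them in growth plate cartilage dissected from the distal femur and proximal tibia of mouse embryos at E18.5. The 3 mutant libraries were from Col2a1-Cre; Idh1 LSL/+ animals, and the 3 control libraries were from Idh1 LSL/+ animals, so that both groups carried the lox-stop-lox allele of mutant Idh1 and the groups differed in the Cre transgene. Col2a1-Cre acts in cells that have used the Col2a1 promoter, and other cells of the dissected piece keep the stop cassette. The labels do not say how many animals went into a library, so that p-values measure the spread between these samples.

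Amino acids cross the plasma membrane on carrier proteins, and each carrier takes a class of substrates. Slc7a1, Slc7a2 and Slc7a3 carry arginine, lysine and ornithine without sodium. Slc3a2 is a heavy chain that brings light chains to the membrane. With Slc7a5 it forms the exchanger that takes up leucine and other large neutral amino acids, and with Slc7a11 it forms the exchanger that takes up cystine for glutamate. Slc6a9 takes up glycine with sodium and chloride, Slc1a4 and Slc1a5 exchange alanine, serine, cysteine and, for Slc1a5, glutamine, and Slc38a2 takes up small neutral amino acids with sodium. Chondrocytes secrete collagen, which is rich in glycine and proline. Atf4, a transcription factor whose protein is made when amino acids are short, is known to act on many of these genes through a composite element for C/EBP and ATF factors.

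The promoters were read for the letters of that element, TGATGNAA on either strand, where N is any base, because Slc7a11 is a textbook target of Atf4. RefSeq windows of GRCm38.p6, from 250 bases before to 50 after a gene's start, were held for 6 of the 10 genes, in 9 windows, and Slc7a2, Slc7a3, Slc7a5 and Slc1a5 had no entry. The letters occurred in the windows of Slc7a11 and Slc1a4, against 3.97% of the 32851 windows of all genes. Slc7a11 held them at 2 places, as 23 of all windows (0.07%) did. Slc7a11 was already known as a target when its promoter was read, so its matches are no independent evidence. The stretches are printed 5′ to 3′ on the gene's strand, with the match in capitals. The stretch of Slc7a11 is chr3:50443644-50443693 on the reverse strand, from -80 to -31 before the start, and that of Slc1a4 is chr11:20332706-20332733 on the reverse strand, from -20 before the start to base 8 after it.
Slc7a11: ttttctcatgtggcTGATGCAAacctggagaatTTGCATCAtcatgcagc
Slc1a4: cagcgtgcctcctgcgTTGCATCAtctc
In Slc7a11 the first match read along the gene and the second against it, and in Slc1a4 the match read against the gene and crossed the start. Slc7a1, Slc3a2, Slc6a9 and Slc38a2 held no match, which says only that these letters were not in these windows.

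The counted reads came to between 23445687 and 30415773 per library, and 3 counts corresponded to between 0.0986 and 0.128 CPM (counts scaled to a common library total, with edgeR's TMM factors in all levels below), which covers counting error only. Idh1, the targeted gene, had 37.3, 39.2 and 65.4 CPM in controls 1, 2 and 3 and 47.6, 47.7 and 56.3 CPM in mutants 1, 2 and 3, so that its total count did not separate the groups. Mutant 3 stood apart by 26356 counts of Xist, against at most 13 in the other libraries. Its genes on chromosome Y had 512 counts, against 4193 to 5829 in the others. By these markers of sex, mutant 3 was the only library of mostly female tissue, so that the groups were not matched for sex. Of the 16813 genes tested with edgeR's quasi-likelihood test and Benjamini-Hochberg adjustment, 9 (0.0535%) had an adjusted p under 0.05 and were higher in the mutants, and 23 (0.137%) were lower.

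Among the 10 transporters, Slc7a3 rose in the mutants and was the only gene past the adjusted threshold of edgeR, which 0.0535% of all genes tested passed in this direction. The other 9 genes were not past it, and 0 of the 10 were called lower. The fitted log2 fold change was above 0 in each of the 10 genes, with a median of 0.21 against -0.0026 over all genes tested, where 49.3% were above 0. With an unadjusted p under 0.05 from edgeR, 6 of the 10 were higher and 0 lower, against 3.71% and 4.93% of all genes. In 5 of the 10, Slc7a3, Slc7a5, Slc7a11, Slc6a9 and Slc1a5, every mutant library was above every control library, against 6.85% of all genes, and in 0 of the 10 was every mutant library below (7.58% of all genes). With DESeq2, 3 of the 10 (Slc7a3, Slc7a5 and Slc6a9) were called higher, against 0.315% of all genes. The 10 genes were chosen with earlier results of these data known, so these shares are no independent evidence about transporters as a class. Mutant 2 was the highest mutant library in 8 of the 10, against 30.5% of all genes, and control 2 the lowest control library in 6 of the 10, against 33.4%. A bulk level sums all cells of the dissected piece, so that more cells of a type and more RNA per cell cannot be told apart.

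**Figure D1:**
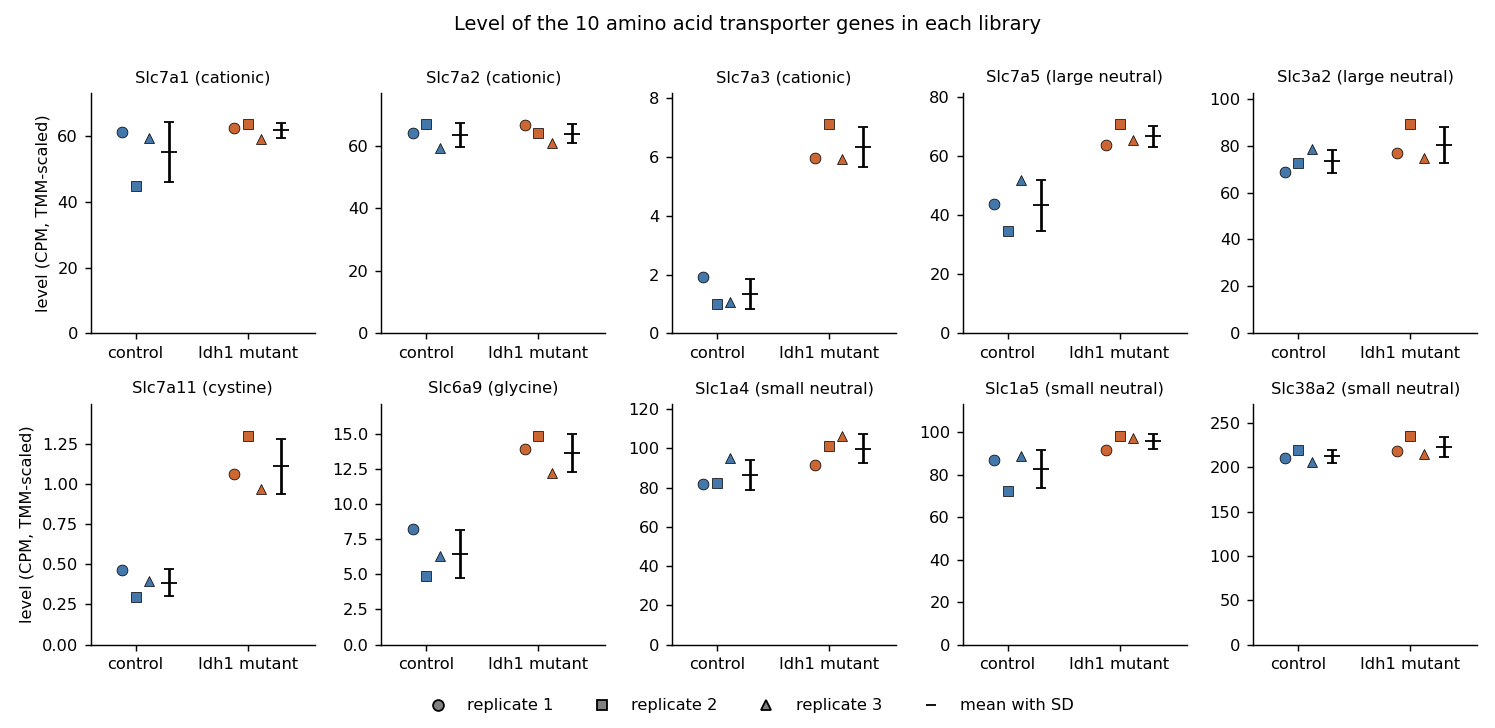
Level of the 10 transporter genes in CPM (y axis, from 0) in each control and Idh1 mutant library, with symbols for the replicate numbers and the mean with SD of 3 libraries beside them. The groups lie apart in Slc7a3, Slc7a5, Slc7a11, Slc6a9 and Slc1a5 and overlap in the remaining 5 genes.

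Slc7a3 (ENSMUSG00000031297, chrX:101079210-101086020, reverse strand of GRCm38) encodes the cationic transporter that is otherwise best known from brain. The control libraries held 54, 31 and 29 counts of it and the mutant libraries 141, 175 and 172, or 1.92, 1.01 and 1.05 CPM against 5.98, 7.11 and 5.93 CPM. The lowest mutant library was at 5.93 CPM and the highest control library at 1.92 CPM. The log2 fold change was 2.26 (95% interval 1.67 to 2.84, adjusted p = 0.0237, edgeR), a fold of 4.78. Mutant 3, the library with Xist counts, had the lowest of the 3 mutant values, and without it the log2 fold change was 2.30 with an adjusted p of 0.0658. The adjusted p from edgeR was also over 0.05 without control 2 (0.0957), mutant 1 (0.0699) or mutant 2 (0.0916) and with the level of Y-linked genes as a covariate (0.0591), and the log2 fold change lay between 2.09 and 2.62 with any library left out.

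The widely expressed cationic transporters did not move with it past the threshold. Slc7a1 (chr5:148327410-148399904, reverse strand), the main arginine importer of many dividing cells, had 61.3, 44.9 and 59.5 CPM across the control libraries and 62.6, 63.7 and 59.2 CPM across the mutant libraries. The groups overlapped, with control 2 below the other 5 libraries, and the log2 fold change was 0.16 (95% interval -0.10 to 0.42, adjusted p = 0.775, edgeR). Slc7a2 (chr8:40862396-40922308, forward strand), whose product feeds arginine to nitric oxide synthase and arginase, had control levels of 64.0, 66.9 and 59.4 CPM and mutant levels of 66.8, 64.1 and 60.8 CPM. These ranges were nearly the same, and the log2 fold change was 0.01 (95% interval -0.17 to 0.19, adjusted p = 0.989, edgeR). The interval leaves room for a fold of at most 1.14. On the opposite strand, Gm26584 overlaps 6.95% of its exon bases and had 0 to 4 counts.

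The coding sequence of Slc7a3 in GENCODE M21 was compared with those of Slc7a1 and Slc7a2 because reads from near-identical copies would be lost or shared. Slc7a3 and Slc7a1 had the same base at 65.0% of 1804 aligned coding positions and Slc7a3 and Slc7a2 at 64.4% of 1842, and the longest identical runs were 16 and 15 bases. Of the 3959 distinct stretches of 50 bases in Slc7a3 transcripts, 0 occurred in a transcript of another gene, against 0.164% of those of Slc7a1 and 6.44% of those of Slc7a2. The shared stretches of Slc7a1 and Slc7a2 lay in 506 and 206 other genes, of which Slc7a3 was none. The 50 coding bases around the longest run are shown, numbered from the first base of the start codon, at 905 to 954 of Slc7a3, 890 to 939 of Slc7a1 and 968 to 1017 of Slc7a2. Capitals in the lines of Slc7a1 and Slc7a2 mark bases identical to Slc7a3.
Slc7a3: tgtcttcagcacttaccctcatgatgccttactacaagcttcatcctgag
Slc7a1: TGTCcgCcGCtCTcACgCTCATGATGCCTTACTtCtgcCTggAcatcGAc
Slc7a2: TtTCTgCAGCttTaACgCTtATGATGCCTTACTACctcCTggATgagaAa
Even in this stretch each paralog differed from Slc7a3 at 17 of the 50 bases.

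Per kilobase of exon, Slc7a3 went from a minor to a visible part of the cationic class. Its share of the summed CPM per kb of Slc7a1, Slc7a2 and Slc7a3 was 3.95%, 2.33% and 2.32% across the control libraries and 11.03%, 13.0% and 11.7% across the mutant libraries. The share of Slc7a1 was 39.5% ± 4.97 (SD, n = 3) in the controls and 38.2% ± 0.283 (SD, n = 3) in the mutants, with overlapping ranges. The share of Slc7a2, 57.6% ± 5.35 (SD, n = 3) in the controls, was 49.9% ± 1.19 (SD, n = 3) in the mutants, although its own level was nearly the same. Within libraries, the log2 ratio of Slc7a3 to Slc7a1 differed by 2.14 between the group means and that of Slc7a3 to Slc7a2 by 2.31, with every mutant above every control (exact two-sided permutation test, p = 0.1 for each, the smallest that 3 against 3 allow). These ratios do not depend on how the libraries were scaled.

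**Figure D2:**
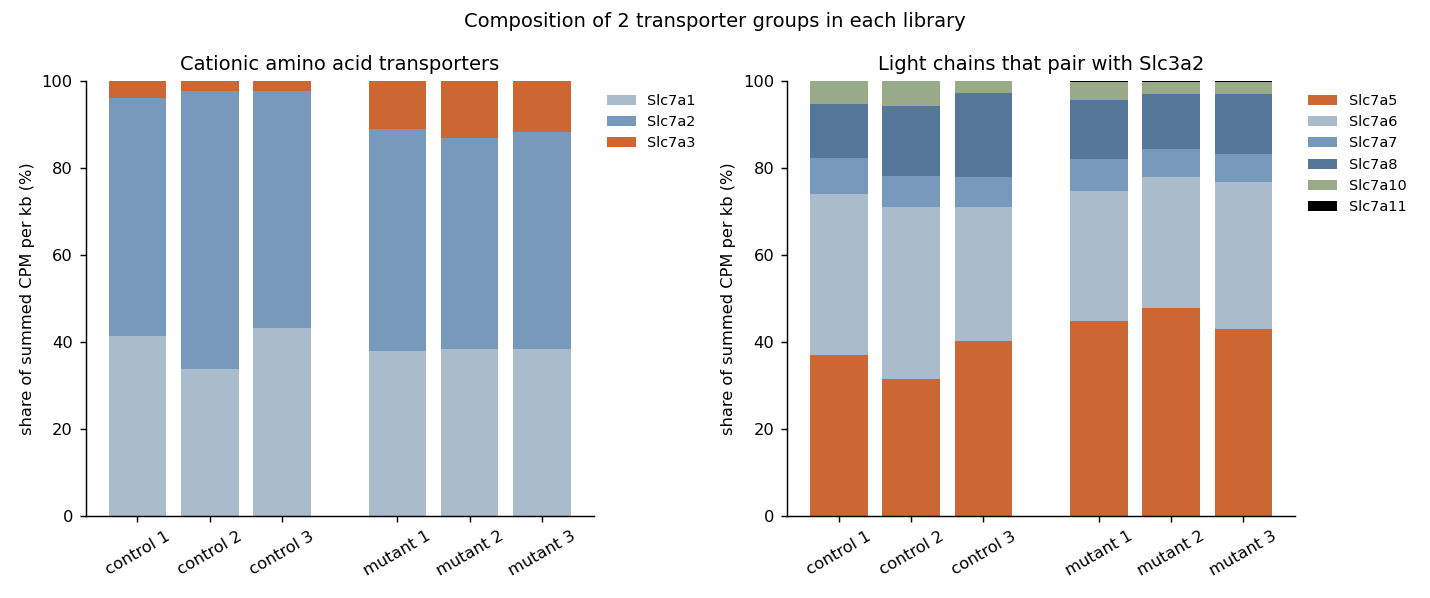
Shares of summed CPM per kb (y axis, percent) among Slc7a1, Slc7a2 and Slc7a3 (left) and among the light chains that pair with Slc3a2 (right). A stacked bar stands for each library. The top segment of the left bars, Slc7a3, is at most 3.95% in the controls and at least 11.03% in the mutants, and the bottom segment of the right bars, Slc7a5, is at most 40.2% in the controls and at least 43.0% in the mutants.

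Slc7a5 (chr8:121881150-121907694, reverse strand) encodes the light chain that carries leucine, a signal for the growth kinase mTOR. Its level was 43.7, 34.7 and 51.9 CPM without Cre and 64.0, 70.9 and 65.4 CPM with it. The groups did not overlap, and control 3 came nearest to the mutants. The log2 fold change was 0.62 (95% interval 0.33 to 0.91), a fold of 1.54, with an adjusted p of 0.142 from edgeR. DESeq2 on the same filtered counts gave an adjusted p of 0.00279, so that the call depended on the tool. Over all alternatives its adjusted p lay between 0.000566 and 0.494.

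Slc3a2 (chr19:8706882-8723369, reverse strand), the heavy chain, did not separate the groups. It had 68.9, 72.4 and 78.5 CPM across the control libraries and 76.9, 89.1 and 74.9 CPM across the mutant libraries, with mutant 2 above the rest. The log2 fold change was 0.13 (95% interval -0.07 to 0.34, adjusted p = 0.768, edgeR). The ratio of Slc7a5 to Slc3a2, per kilobase, was 0.506, 0.382 and 0.527 without Cre and 0.665, 0.635 and 0.697 with it (exact two-sided permutation test, p = 0.1, the smallest possible). Thus the light chain was higher relative to its heavy chain in every mutant library. Among the 6 light chains of Slc3a2 in the tables, Slc7a5 made up 36.2% ± 4.40 (SD, n = 3) of the level per kb in the controls and 45.2% ± 2.42 (SD, n = 3) in the mutants.

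Slc7a11 (chr3:49892526-50443614, reverse strand), the cystine carrier whose promoter held both matches above, was the rarest of the 10. The control libraries held 13, 9 and 11 counts and the mutant libraries 25, 32 and 28, or 0.462, 0.294 and 0.397 CPM against 1.06, 1.30 and 0.965 CPM. The groups did not overlap, and the lowest count, 9, was above the 3 counts taken as the floor. The log2 fold change was 1.52 (95% interval 0.76 to 2.28, adjusted p = 0.166, edgeR), and at these counts the interval spans folds from 1.69 to 4.86. Its adjusted p was over 0.05 in all 15 alternatives that tested it, with 0.0715 as the lowest. The share of Slc7a11 among the light chains of Slc3a2 was 0.0856% ± 0.0168 (SD, n = 3) in the controls and 0.200% ± 0.0323 (SD, n = 3) in the mutants.

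Slc6a9 (chr4:117834506-117875198, forward strand), the glycine carrier, gave control counts of 232, 149 and 175 and mutant counts of 329, 367 and 355. The levels were 8.24, 4.86 and 6.32 CPM against 13.9, 14.9 and 12.2 CPM, without overlap. The log2 fold change was 1.08 (95% interval 0.67 to 1.495), a fold of 2.12, and the adjusted p of 0.0709 from edgeR missed the threshold. DESeq2 gave an adjusted p of 2.45e-05, and over all alternatives it lay between that value and 0.279. Reads were counted without strand, and 27.8% of the exon bases of Slc6a9 overlap Ccdc24 on the opposite strand, where reads of both genes are left out. Ccdc24 itself had 13 to 19 counts in the controls and 12 to 23 in the mutants, far fewer than Slc6a9. These counts leave out the shared reads too. Also on the opposite strand, Gm17114 overlaps 9.94% of the exon bases of Slc6a9 and had 0 counts. B4galt2 overlaps 0.895% and had 1294 to 1699 counts. The effect of these overlaps on the level of Slc6a9 was not tested.

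Of the 3 carriers of small neutral amino acids, 0 passed the adjusted threshold of edgeR, and their log2 fold changes lay between 0.07 and 0.21. Slc1a5 (chr7:16781346-16798274, forward strand), a glutamine exchanger, had control levels of 87.0, 72.5 and 88.9 CPM and mutant levels of 91.8, 98.5 and 97.2 CPM. Its groups did not overlap by a narrow margin, and the log2 fold change was 0.21 (95% interval 0.0038 to 0.42, adjusted p = 0.567, edgeR). Slc1a4 (chr11:20302180-20332713, reverse strand), which exchanges alanine, serine and cysteine, had 81.7, 82.3 and 95.1 CPM without Cre and 91.7, 101 and 106 CPM with it. Control 3 lay within the mutant range, and the log2 fold change was 0.21 (95% interval 0.0033 to 0.41, adjusted p = 0.567, edgeR). Slc38a2 (chr15:96687394-96699698, reverse strand), a sodium-coupled carrier that responds to amino acid supply in many cells, had 211, 220 and 206 CPM across the control libraries and 218, 236 and 215 CPM across the mutant libraries. Its ranges overlapped, with a log2 fold change of 0.07 (95% interval -0.10 to 0.25, adjusted p = 0.872, edgeR).

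**Figure D3:**
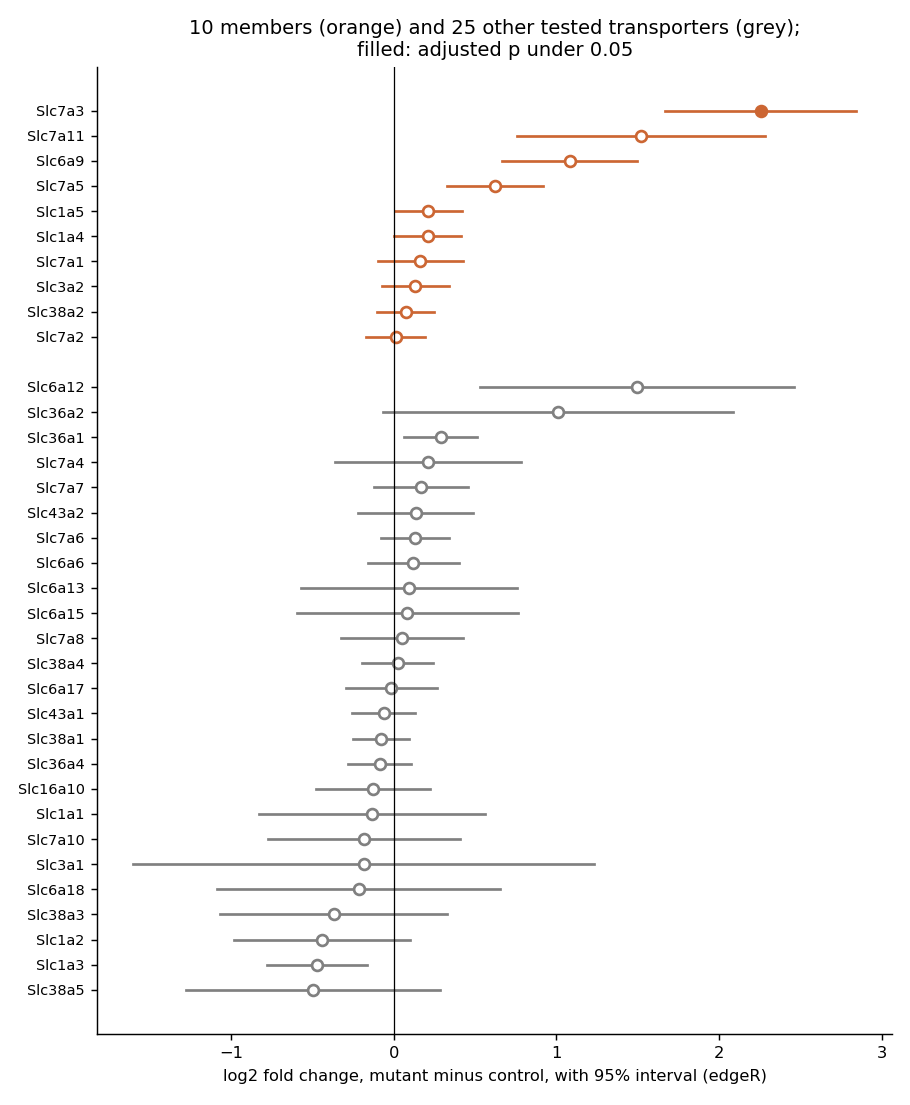
Log2 fold change of the mutants over the controls with its 95% interval (x axis, edgeR) for the 10 transporters (orange) and 25 other tested plasma membrane amino acid transporters (grey). Slc7a3, at 2.26, is the filled point, with an adjusted p under 0.05, and the intervals of Slc7a11, Slc6a9, Slc7a5, Slc1a4 and Slc1a5 also lie to the right of 0, those of Slc1a4 and Slc1a5 barely so.

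Ranked by CPM per kb of exon in the controls, the order was Slc38a2 (45.9), Slc3a2 (24.8), Slc1a4 (22.0), Slc1a5 (19.9), Slc7a5 (11.7), Slc7a2 (6.94), Slc7a1 (4.79), Slc6a9 (1.26), Slc7a3 (0.350) and Slc7a11 (0.0276). The order was the same in the mutants. The control ranges of Slc3a2 and Slc1a4 overlapped, as did those of Slc1a4 and Slc1a5, in the mutants too, and the other neighbours were separate. The 3 largest folds were at the 3 rarest genes, while the largest difference in level, of 6.30 CPM per kb, was that of Slc7a5. Slc7a3 differed by 1.32 CPM per kb and Slc6a9 by 1.40. The 10 genes together came to 138 ± 5.84 CPM per kb (SD, n = 3) in the controls and 159 ± 7.44 (SD, n = 3) in the mutants, of which Slc7a3 made up 0.255% and 1.05%.

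**Figure D4:**
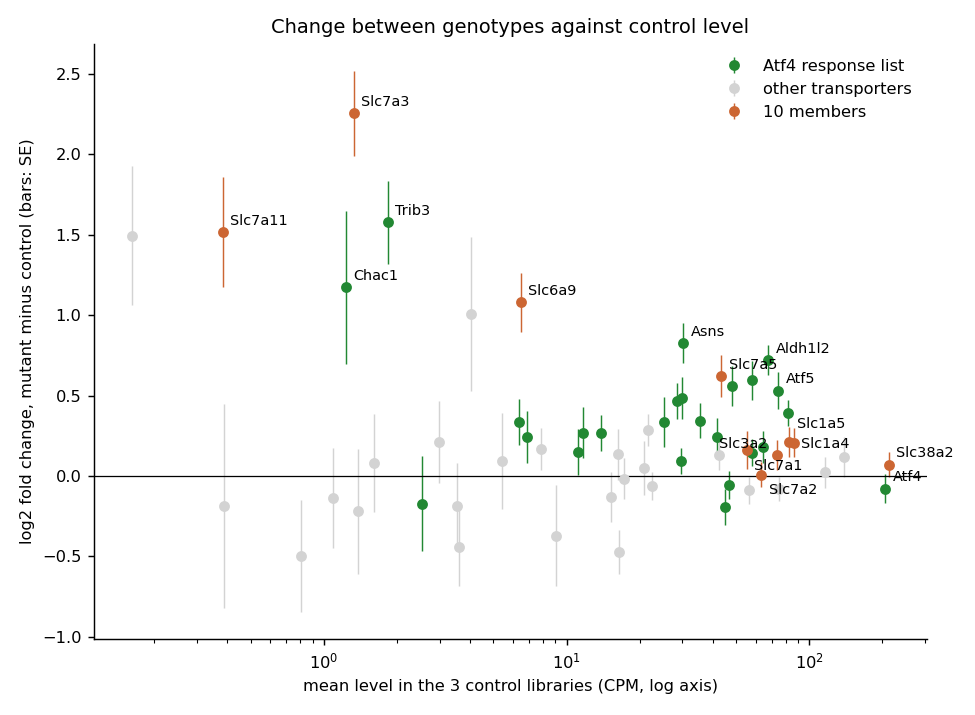
Log2 fold change with its standard error (y axis, edgeR) against the mean control level in CPM (x axis, logarithmic) for the 10 transporters, the other tested transporters and the Atf4 response list. Slc7a3 and Slc7a11 lie at the upper left beside Trib3 and Chac1, and Slc38a2 and Atf4 lie near 0 at the right.

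Of 36 further plasma membrane amino acid transporters, 25 were tested with edgeR and 0 were called in either direction. Without adjustment 2 were higher and 1 lower at a p under 0.05 from edgeR, against 3.71% and 4.93% of all genes tested. DESeq2 also called 0, and the median log2 fold change was -0.02. The lowest p in this list was that of Slc6a12, a betaine and GABA carrier with control counts of 4, 5 and 5 and mutant counts of 12, 9 and 15 (log2 fold change 1.495, adjusted p = 0.331, edgeR). Slc1a3, a glutamate and aspartate carrier, had control levels of 13.3, 18.6 and 17.5 CPM and mutant levels of 11.1, 12.5 and 12.1 CPM (log2 fold change -0.47, adjusted p = 0.334, edgeR). Slc36a1, a proton-coupled carrier of small amino acids, had a log2 fold change of 0.29 and Slc36a2, of the same family, of 1.01, with overlapping groups for the second (adjusted p = 0.454 and 0.625, edgeR). Slc7a6 and Slc7a7, which exchange cationic for neutral amino acids with Slc3a2, were at 0.13 and 0.17, Slc43a2 and Slc16a10 of the large neutral class at 0.13 and -0.13, the taurine carrier Slc6a6 at 0.12 and the glutamate carrier Slc1a2 at -0.44, and 0 of these passed the threshold.

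Of 37 genes of amino acid sensing upstream of mTORC1, all tested, 0 passed the adjusted threshold of edgeR. At an unadjusted p under 0.05 from edgeR, 2 were higher and 0 lower, against 3.71% and 4.93% of all genes tested. Sesn2, a leucine sensor and Atf4 target, had a log2 fold change of 0.33. Nprl3 and Mlst8 were at 0.20, Rragc at -0.11, Deptor at -0.17, Fnip1 at -0.18 and Sesn3 at -0.19. Of 25 genes of arginine, glutamine, glutathione and glycine metabolism, 24 were tested and 0 passed. Against the same shares of all genes, 0 were higher and 1 was lower at 0.05 without adjustment. That gene was the glutaminase Gls2, at -0.54 on the log2 scale (adjusted p = 0.501, edgeR). The glutamate dehydrogenase Glud1 was at 0.13 and the dehydrogenase Dld at 0.07. The glutathione enzymes Gclc and Gclm, downstream of cystine, were at 0.10 and -0.09, the nitric oxide synthase Nos3 and the arginine-forming enzyme Ass1 at 0.22 and 0.38, and the glycine-cleaving enzyme Gldc at -0.53, each with an adjusted p over 0.05.

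The Atf4 response list was written with earlier results of these libraries known and so is not independent evidence of a direction. Of its 27 genes, 25 were tested and 2 passed, both higher, where 0.0535% of all genes tested passed in this direction. At an unadjusted p under 0.05 from edgeR, 13 were higher and 0 lower, against 3.71% and 4.93% of all genes tested. Asns, asparagine synthetase, had a log2 fold change of 0.83 (adjusted p = 0.0390) and Aldh1l2, a mitochondrial folate enzyme, of 0.72 (adjusted p = 0.0355, edgeR for both). Atf5, a factor of the same response, was at 0.53 (adjusted p = 0.149, edgeR), and Atf4 itself at -0.08. The list's median log2 fold change was 0.33, against -0.0026 over all genes tested.

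The gene most like Slc7a3 over the 6 libraries came from that list. Among 14447 genes with a mean of at least 1 CPM, Trib3, a pseudokinase induced by Atf4, had the highest Pearson correlation of log2 level with Slc7a3 (r = 0.991, n = 6 libraries). Its levels were 2.56, 1.27 and 1.66 CPM without Cre and 5.001, 6.18 and 5.20 CPM with it (log2 fold change 1.58, adjusted p = 0.0600, edgeR). In both genes control 1 was the highest control and mutant 2 the highest mutant. The next were Slc35a2, a nucleotide sugar carrier of the Golgi that is also on chromosome X (0.987), Optn, an autophagy receptor (0.984), Dna2, a nuclease and helicase (0.98), and Rbm28, a nucleolar protein (0.98). Of the transporters themselves, Slc7a11, whose mean was under 1 CPM and which is outside the 14447 genes, had an r of 0.984. Slc6a9 had an r of 0.976, Slc7a5 of 0.877, Slc1a5 of 0.794 and Slc1a4 of 0.667. For Slc7a1 it was 0.621, for Slc38a2 0.601, for Slc3a2 0.519 and for Slc7a2 0.108. These values describe 6 libraries in 2 groups, and any gene that separates the groups evenly has a high r.

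Markers of the labelled tissue and of its neighbours were present in every library. All 7 chondrocyte markers had counts throughout, with a summed level of 3233 to 6546 CPM in the controls and 5098 to 7180 CPM in the mutants, and 0 of 7 were called. The 7 muscle markers summed to between 13830 and 21470 CPM over all libraries, with 0 of 7 called. Among the controls, control 3 had the lowest level of every chondrocyte marker and the highest of every muscle marker. Its Col2a1 was at 1923 CPM, against 3240 and 4280 in controls 1 and 2, and its Acta1 at 6813 CPM, against 3931 and 4516. The 5 tendon markers summed to 2993 to 3288 CPM in the controls and 2004 to 2341 CPM in the mutants, with 1 of 5, Tnmd, called lower, and the 6 erythroid markers to 545 to 1583 CPM and 288 to 427 CPM, with 0 called. The 5 osteoblast markers summed to 319 to 1284 CPM in the controls and 1229 to 1962 CPM in the mutants, overlapping, with 0 of 5 called. The 5 keratinocyte markers summed to 10.2 to 20.2 CPM in the controls and 9.10 to 9.92 CPM in the mutants. Of the 4 tested, 1, Krt5, was called lower, while Krt10, Krt1 and Trp63 overlapped between the groups. Krt5 and Krt14 were at 0 counts in at least 1 library. The sums of the 5 endothelial, 5 macrophage and osteoclast and 4 Schwann and neural markers overlapped between the groups, with 0 called. The part of the tendon, erythroid, keratinocyte and osteoblast differences in the values of Slc7a3 and the other transporters was not tested. Nor was the part of the lower chondrocyte and higher muscle markers of control 3.

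**Figure D5:**
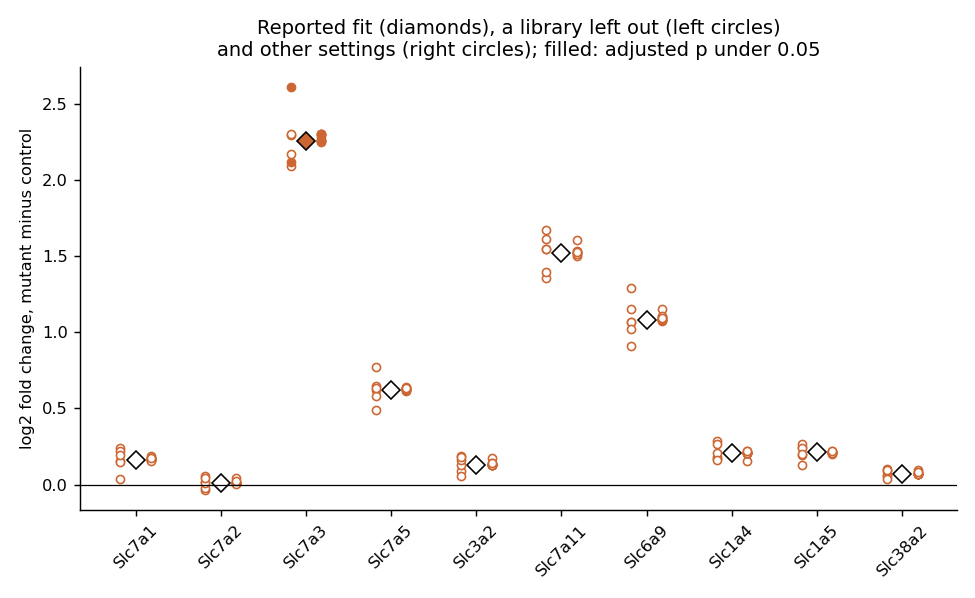
Log2 fold change (y axis) of each transporter in the reported fit (diamonds), with a library left out (circles to the left) and under other settings (circles to the right), filled where the adjusted p was under 0.05. Slc7a3 stays between 2.09 and 2.62, and Slc7a2 is the gene whose values fall on both sides of 0.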

How the data were processed

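The authors trimmed the reads with Trim Galore 0.6.4, mapped them to GRCm38 with STAR 2.6.1d and counted them on exons with featureCounts 1.6.4 without regard to strand, although the library kit kept the strand. What the authors deposited for each library is a table of raw read counts by gene. From these counts, edgeR 4.0.16 in R 4.3.3 was run with filterByExpr (minimum count 10, minimum total 15), TMM factors (0.964 to 1.02) and the quasi-likelihood test over 16813 genes, with Benjamini-Hochberg adjustment and a threshold of 0.05. Standard errors are the fold change over the square root of F. CPM per kb divides by the exon length in the tables. Likeness used log2(CPM + 0.5). Exon overlaps were found with bedtools 2.31.1 and coding sequences aligned with Biopython 1.88. Figures used matplotlib 3.10.9.

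The study's design has a litter term, and the labels give no litter, so genotype alone was fitted. Same-numbered libraries did not deviate together (r of deviations -0.127, 0.007 and -0.0953 over 16813 genes), so numbers were not taken as pairs. The highest r between a control and a mutant was 0.158, of control 3 and mutant 1. Deviations from a mean of 3 libraries constrain each other, so these values cannot say which libraries shared a litter. Libraries of a group differed by more than their counting error (chi-square over its degrees of freedom, 11.6 to 45.1). The functions were tested on simulated data. Genes named are the 10 members, called genes of the other lists or else the 2 genes of a class with the lowest p, and the 5 genes most like Slc7a3, and 1 gene that this rule names is not reported here. The members and lists were chosen with earlier results of these data known, and the light-chain shares, motif and sequence comparisons after values were seen. The alternatives used DESeq2 1.42.0 and limma-voom (limma 3.58.1), other scalings and filters, the replicate block, the level of Y-linked genes as a covariate, genes of the sex chromosomes left out, and each library left out.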

Additional observations from a re-analysis of the deposited data

How the results depend on the processing

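Of 158 results for the 10 transporters under alternatives, 144 had the same sign and the same call, 6 lost the call, 6 gained it and 2 changed sign. The sign changed for Slc7a2, at -0.033 without control 3 and -0.023 without mutant 1, and its highest value with a library left out was 0.054. The count of called transporters, 1 in the reported fit, was 3 with DESeq2, with DESeq2 and the replicate block and without the low-count filter (Slc7a3, Slc7a5 and Slc6a9 each time). In these settings 0.315%, 0.149% and 0.268% of all genes tested were called higher, the last of 28686 genes. The count of transporters was 0 with the Y-linked covariate, with edgeR and the replicate block, and with chromosomes X and Y left out, which removes Slc7a3 itself. There 0.0119%, 0.0119% and 0.0493% of all genes tested were called higher. With single libraries left out the count of transporters was 0 to 1, against 0.0116% to 0.029% of all genes tested called higher. Of all genes, 32 in the reported fit, 194 were called with DESeq2, 89 with DESeq2 and the replicate block, 3 with edgeR and the replicate block, 6 with the Y-linked covariate, 19 with limma-voom and 259 without the low-count filter, and 3 to 17 with a library left out. Of the calls, 28.1% were higher in the mutants in the reported fit and 66.7% with the edgeR block. The adjusted p of Slc7a3 was 0.0591 with the Y-linked covariate and 0.0854 with the edgeR block, where its log2 fold change was 2.31 and 2.29. The log2 ratio of Slc7a3 to Slc7a1 and to Slc7a2 differed by 2.14 and 2.31 between the groups, and paired differences (replicate block) give these values by construction, so that they are no test of stability. For these changes the cause was not tested. At the depth of these libraries, Slc7a11 rests on 9 to 32 counts.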

Other observations

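The letters TGATGNAA were also counted in the Atf4 response list, where 7 of the 24 genes with a window (29.2%) held them, against 4.51% of all genes with a window. The list holds 9 factors of the response and 18 targets, and such letters are described for known Atf4 targets. It was written with earlier results of these libraries known, so its share is no independent evidence.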
